A study of Mus musculus with 15 samples.

Results

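Integrins and the proteins that join them to actin were followed through ureteral obstruction of the mouse kidney, in ribosome-bound and unbound polysomal RNA. The set was chosen by gene symbol: all integrin alpha and beta genes that a probe set names alone, plus the focal adhesion genes Tln1, Tln2, Vcl, Zyx, Pxn, Ilk, Parva, Lims1, Lims2, Fermt2, Actn1 and Flna. It held 38 of the 18161 genes named by the arrays, read by 87 of 34945 single-gene probe sets: 16 alpha subunits, 9 beta subunits or beta-like genes, the integrin-like gene Itgbl1 and 12 adaptors. All 38 were tested. Itga11, Itgad and Ptk2 were not analysed here.

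The kidneys came from C57/129sv mice of both sexes, aged postnatal day 14 to 300 (Theiler stage 28). Every group, day 0 included, carried Tg:Col1a1-eGFPL10a, in which collagen 1α1 regulatory sequence drives GFP fused to ribosomal protein L10a, so that tagged ribosomes and their mRNA can be pulled down (translating ribosome affinity purification, TRAP). Any cell that uses this element carries the tag. Day 0 kidneys had sham surgery, and kidneys of day 2 and day 5 had unilateral ureteral obstruction, a block of urine flow that leads to fibrosis. The 15 arrays form 5 groups of 3: bound day 0 (arrays 1 to 3), unbound day 0 (4 to 6), bound day 2 (7 to 9), bound day 5 (10 to 12) and unbound day 5 (13 to 15). Bound samples are labelled as kidney pericytes (medullary periarterial fibroblasts) and unbound samples as kidney medulla. Unbound RNA of day 2 was not analysed here. Since no label states that replicate arrays are of different animals, p-values reflect only how far these samples spread, which may be technical.

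Integrins are receptors made of 1 alpha and 1 beta chain that bind extracellular matrix or other cells. Talin and kindlin bind the beta chain and switch the receptor to its active form, and vinculin, paxillin, zyxin, filamin, α-actinin and the complex of ILK, PINCH and parvin couple it to actin stress fibres. In kidney fibrosis, matrix-producing fibroblasts attach through integrins, and αv integrins release transforming growth factor β from its latent complex.

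Levels are log2 values after quantile normalization, and differences are given as log2 ± standard error with the adjusted p from limma. A level of 1 gene cannot be set against that of another, because probes differ in efficiency. The highest negative control, called the floor here, lay at 3.41 to 5.09. Members above it on all arrays numbered 29, and Itga2, Itga10, Itgam, Itgb2l and Itgbl1 were at or below it on 8, 6, 9, 10 and 10 arrays. Arrays 6, 9, 12 and 15 were at least 2.07 times as bright in spiked hybridization controls as the rest, and array 11 had a Gapdh 5′ to 3′ ratio of 0.0269 against 0.178 to 0.583 elsewhere. On day 0, 9 of 12 fibroblast and 6 of 10 smooth muscle or pericyte markers were higher in bound than unbound RNA. So were 6 of 6 measured podocyte markers, which belong to the glomerulus and not to the cell type that the labels name. Fewer cells of a type and less RNA per cell cannot be told apart in these samples.

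Promoter windows of 300 bases, from 250 before to 50 after the RefSeq transcript start in GRCm38.p6, were matched for 27 of the 38 members (32 promoters). Shown here are the 5 members that passed in at least 1 comparison and hold a match to TGANTCA or GGAATG, in capitals on either strand. TGANTCA includes the AP-1 sites TGACTCA and TGAGTCA but is wider than them, and GGAATG is bound by TEAD factors. The window of Itga9, at chr9:118711442-118711741 on the plus strand, holds TGACTCA 39 bases past a transcript start that lies 104983 bases inside the RefSeq gene. That of Itgax, at chr7:128129300-128129599 on the plus strand, holds TGAGTCA at -56, and its start lies 24 bases inside the gene. Zyx, at chr6:42349578-42349877 on the plus strand, has TGAGTCA at -121, with a start 317 bases inside the gene. Itga3, at chr11:95069149-95069448 on the minus strand, has TGAATCA 13 bases past a start 7646 bases inside the gene, and its other window holds no match. TGAATCA fits the pattern but is neither AP-1 site named above. Flna, at chrX:74246485-74246784 on the minus strand, has CATTCC, the reverse complement of GGAATG, at -146, with a start 3320 bases inside the gene.
Itga9: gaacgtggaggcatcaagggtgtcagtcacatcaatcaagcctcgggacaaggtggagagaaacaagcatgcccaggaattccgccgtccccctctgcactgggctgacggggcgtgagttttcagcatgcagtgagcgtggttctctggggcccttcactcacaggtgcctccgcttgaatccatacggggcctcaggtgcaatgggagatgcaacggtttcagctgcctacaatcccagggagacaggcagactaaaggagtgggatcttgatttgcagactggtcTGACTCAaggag
Itgax: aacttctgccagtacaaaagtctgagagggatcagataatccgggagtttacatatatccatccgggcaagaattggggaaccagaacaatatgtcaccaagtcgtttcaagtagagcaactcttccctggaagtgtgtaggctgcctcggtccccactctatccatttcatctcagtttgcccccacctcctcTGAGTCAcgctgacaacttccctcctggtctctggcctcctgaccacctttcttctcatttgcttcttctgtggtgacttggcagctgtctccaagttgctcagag
Zyx: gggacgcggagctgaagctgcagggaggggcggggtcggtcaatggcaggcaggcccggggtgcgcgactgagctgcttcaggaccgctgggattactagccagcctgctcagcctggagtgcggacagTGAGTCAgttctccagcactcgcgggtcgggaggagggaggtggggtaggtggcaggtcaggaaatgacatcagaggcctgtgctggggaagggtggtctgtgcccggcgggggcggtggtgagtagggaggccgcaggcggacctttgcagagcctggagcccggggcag
Itga3: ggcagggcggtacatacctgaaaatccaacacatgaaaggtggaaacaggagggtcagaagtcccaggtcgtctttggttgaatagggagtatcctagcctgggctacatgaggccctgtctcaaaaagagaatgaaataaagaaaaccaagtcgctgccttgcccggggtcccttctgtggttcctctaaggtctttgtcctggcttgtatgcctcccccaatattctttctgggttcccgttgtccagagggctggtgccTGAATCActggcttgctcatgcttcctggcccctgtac
Flna: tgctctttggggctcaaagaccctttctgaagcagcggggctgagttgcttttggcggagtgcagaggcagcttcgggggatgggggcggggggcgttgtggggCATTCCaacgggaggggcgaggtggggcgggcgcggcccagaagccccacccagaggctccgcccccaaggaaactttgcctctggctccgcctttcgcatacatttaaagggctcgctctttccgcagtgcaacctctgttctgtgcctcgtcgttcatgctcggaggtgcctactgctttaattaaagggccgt
Among member promoters TGANTCA occurred in 4 of 32 (all promoters 7.81%) and GGAATG in 4 of 32 (all promoters 14.7%). The CArG box of serum response factor occurred in 3 of 32, those of Fermt2, Itgb6 and Vcl, against 1.63% of all promoters. None of those 3 genes passed in any comparison. A match is a run of letters, not a measured binding site.

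Ribosome-bound RNA of sham kidneys held more of the actin cross-linkers filamin A and α-actinin-1 and of the integrin chains β5 and α8. These 4 of 38 members (10.5%) were higher and 0 lower, where 8.93% of all 16839 genes tested passed in either direction and 4.82% were higher. The median member differed by 0.32 and the median gene by -0.13. Groups did not overlap for 17 of 38 members, against 36.9% of all genes. The count of calls fell to 2 without array 4. The 34 members that did not pass ranged from -1.62 to 1.51.

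Flna, the filamin A gene, read 11.61, 12.37 and 12.46 on the bound arrays of day 0 and 9.10, 9.69 and 9.43 on the unbound arrays. Every bound array was far above every unbound array, a difference of 2.74 ± 0.29, or 6.7-fold (adjusted p = 0.000327). Actn1, which encodes α-actinin-1, read 12.40, 13.14 and 13.27 bound and 10.64, 10.63 and 10.48 unbound, 2.35 ± 0.29 or 5.11-fold apart (adjusted p = 0.000864). The groups of Actn1 were as clearly apart, and both other Actn1 probe sets gave larger differences (3.42 and 3.18). Neither call ended under any of the 15 alternatives tried for it.

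Itgb5, whose β5 chain pairs with αv to bind vitronectin, read 11.87, 11.78 and 11.65 bound and 10.45, 10.91 and 10.65 unbound. The arrays did not overlap and differed by 1.10 ± 0.21, or 2.14-fold (adjusted p = 0.00919). Its chosen probe set is of a type whose probes may match other sequences, and the other 3 gave 1.06, 1.25 and 1.21. The call ended without array 4 (adjusted p = 0.0522) and under median centring and omission of the 4 bright arrays (adjusted p = 0.0732 to 0.162). Itga8, whose α8β1 receptor binds nephronectin, read 10.52, 10.98 and 10.81 bound and 9.15, 9.47 and 9.46 unbound. It was higher on all bound arrays, by 1.41 ± 0.36 or 2.66-fold (adjusted p = 0.033). That call ended without any 1 of arrays 1, 2, 3, 4, 5 and 6 (adjusted p = 0.0501 to 0.12) and under median centring, the mean of all probe sets and omission of the 4 bright arrays (adjusted p = 0.0995 to 0.15).

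Podocyte markers moved with these members, by a median of 4.65, and their mean level spanned 11.25 to 12.50 on the bound arrays against 7.09 to 7.76 on the unbound. Fibroblast markers spanned 9.83 to 10.21 bound and 7.53 to 8.26 unbound, with a median difference of 1.93. The part of either in the differences of Flna, Actn1, Itgb5 and Itga8 was not tested.

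**Figure D1:**
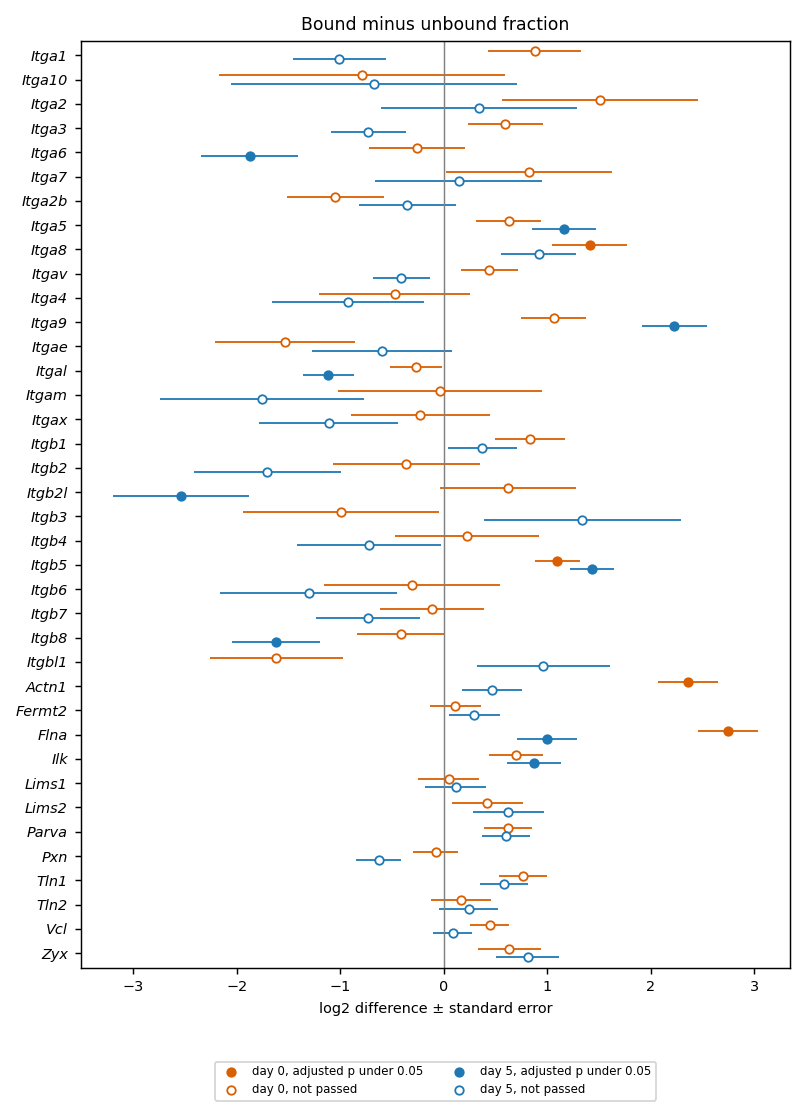
Log2 difference between bound and unbound RNA for each of the 38 genes on day 0 (orange) and day 5 (blue), as the limma estimate with its standard error from 3 arrays per group. Filled points passed at an adjusted p under 0.05: 4 genes on day 0, all to the right of 0, and 9 on day 5, of which 4 lie to the left.

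By day 5 of obstruction, bound RNA stood above unbound RNA in α9, β5, α5, filamin A and integrin-linked kinase. Below unbound RNA were α6, β8, αL and the β2-like gene, the last with all its bound arrays at the floor. These are 5 members higher and 4 lower (23.7% of 38), against 14.1% of all genes in either direction, 6.38% higher and 7.76% lower. The median member differed by 0.10 and the median gene by 0.03. Groups were apart for 20 of 38 members and for 43% of all genes. With arrays centred on their medians in place of quantile normalization, the median gene moved to 0.41 and the split became 11 higher and 2 lower. Members that did not pass lay between -1.75 and 1.34. The count was 2 without array 13, 3 without 14 or 15, 4 without 10 or 12 and 6 without 11. It was 0 without the 4 bright arrays, where 10 members had an unadjusted p under 0.05.

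Itga9 had the largest difference of the members higher in bound RNA on day 5. Its α9β1 receptor binds tenascin-C and osteopontin. It read 9.80, 9.12 and 9.56 bound and 7.39, 7.54 and 6.88 unbound, with no overlap, which is 2.22 ± 0.31 or 4.67-fold (adjusted p = 0.00285). On day 0 the arrays were also apart, at 7.04, 7.06 and 6.93 bound and 5.76, 5.94 and 6.14 unbound, but that difference of 1.06 ± 0.31 did not pass (adjusted p = 0.0546). The day 5 call ended under omission of the 4 bright arrays (adjusted p = 0.0829).

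For Itgb5 the day 5 values were 12.54, 12.71 and 12.20 bound and 11.18, 11.08 and 10.90 unbound, 1.43 ± 0.21 or 2.69-fold (adjusted p = 0.00319). The bound arrays were all higher, as on day 0. It no longer passed under omission of the 4 bright arrays (adjusted p = 0.0762). Itga5, the alpha chain of the fibronectin receptor α5β1, read 10.89, 11.39 and 10.15 bound and 9.89, 9.74 and 9.33 unbound, or 1.16 ± 0.31 (2.23-fold, adjusted p = 0.0295). The lowest bound array was above the highest unbound one. That call ended without any 1 of arrays 10, 11, 13, 14 and 15 (adjusted p = 0.0562 to 0.107) and under the mean of all probe sets, a fit of only the groups compared and omission of the 4 bright arrays (adjusted p = 0.0766 to 0.847). The mean of all Itga5 probe sets gave 0.14.

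Flna in bound RNA was above unbound RNA on day 5 at 12.67, 12.46 and 12.59 against 11.68, 11.61 and 11.44, 1.00 ± 0.29 or 1.99-fold (adjusted p = 0.041). Significance was lost without any 1 of arrays 10, 11, 12, 13, 14 and 15 (adjusted p = 0.0664 to 0.12) and under omission of the 4 bright arrays (adjusted p = 0.212). Ilk, which encodes the kinase-like scaffold that binds β1 and β3 tails, read 11.45, 11.22 and 11.86 bound and 10.51, 10.52 and 10.90 unbound, 0.87 ± 0.26 or 1.83-fold (adjusted p = 0.043). Its groups were apart, and the call ended without any 1 of arrays 10, 12, 13, 14 and 15 (adjusted p = 0.0678 to 0.138) and under the mean of all probe sets, a fit of only the groups compared, brightness as a covariate and omission of the 4 bright arrays (adjusted p = 0.0526 to 0.162). Under median centring, which moved the median gene to 0.41, the day 5 differences were 1.79 for Flna, 1.44 for Ilk and 2.23 for Itgb5.

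Among the members lower in bound RNA, Itga6 encodes the laminin-binding α6 chain of epithelial and endothelial cells. It read 9.36, 10.92 and 9.41 bound and 11.90, 11.59 and 11.83 unbound, a difference of -1.88 ± 0.47 (bound 3.67-fold lower, adjusted p = 0.0222). Array 11 was the highest of the bound arrays and was still below all unbound arrays. The call ended without any 1 of arrays 10, 12, 13, 14 and 15 (adjusted p = 0.0606 to 0.0791) and under median centring, the mean of all probe sets and omission of the 4 bright arrays (adjusted p = 0.0519 to 0.225).

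Itgb8 encodes the β8 chain that, with αv, binds latent transforming growth factor β. It read 8.76, 9.16 and 8.64 bound and 10.20, 10.74 and 10.48 unbound, a difference of -1.62 ± 0.43 (bound 3.08-fold lower, adjusted p = 0.0277). The bound arrays were close together and all lower. This result did not pass without any 1 of arrays 10, 12, 13, 14 and 15 (adjusted p = 0.0562 to 0.0993) and under median centring and omission of the 4 bright arrays (adjusted p = 0.0615 to 0.178).

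Itgal, the alpha chain of the leukocyte receptor LFA-1, read 5.18, 5.38 and 5.29 bound and 6.89, 6.13 and 6.17 unbound. Bound arrays were all lower, by a difference of -1.12 ± 0.25 (2.17-fold, adjusted p = 0.0138). The threshold was missed without array 13 (adjusted p = 0.056) and under the mean of all probe sets and omission of the 4 bright arrays (adjusted p = 0.118 to 0.82). The difference was -0.14 under the mean of both Itgal probe sets, the other of which is above the floor on 1 array, and -1.23 without the bright arrays. Itgb2l passed with -2.54 ± 0.66 (adjusted p = 0.026) but lay at or near the floor in both groups. It read 2.66, 0.63 and 1.42 bound and 4.38, 4.05 and 3.89 unbound. With the bound arrays set to their floor the difference was 0.37, so it has no fold and no measured direction. Its call ended without any 1 of arrays 11, 12, 13, 14 and 15 (adjusted p = 0.0648 to 0.0809) and under the mean of all probe sets and omission of the 4 bright arrays (adjusted p = 0.129 to 0.278). The mean of its probe sets gave -0.71.

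Markers of other cells also differed between the fractions on day 5. The mean level of 14 endothelial markers was 8.15 to 8.60 bound and 9.35 to 9.59 unbound, with 7 lower and 1 higher. Of 15 macrophage markers 5 were lower and 0 higher, with means of 8.73 to 10.14 bound and 10.84 to 11.14 unbound. Tubule markers were lower in bound RNA too, with none higher: 6 of 10 for the collecting duct (median -1.84), 5 of 7 for the loop and distal tubule (-1.56) and 3 of 10 for the proximal tubule (-1.79). Fibroblast markers spanned 10.80 to 11.31 bound and 9.72 to 9.88 unbound, with 6 of 12 higher in bound RNA (median 1.15). Higher too were 6 of 10 smooth muscle or pericyte markers (1.63) and 3 of 6 podocyte markers (1.57), and 0 of these were lower. The part of all these markers in the differences of Itga6, Itgb8, Itgal and the members higher in bound RNA was not tested.

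Within bound RNA, α5 and α9 were higher and Lims2 and Itgae lower on day 2 of obstruction than on day 0. With 2 members higher and 2 lower, 10.5% of 38 passed, against 9.26% of all genes in either direction, 5.61% higher and 3.66% lower. The median member changed by 0.04 and the median gene by 0.00. Groups were apart for 9 of 38 members and 21.5% of all genes, and members that did not pass spanned -1.39 to 2.72. Median centring gave 2 higher and 1 lower.

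By day 5, 7 members were higher than on day 0 in bound RNA (Itgb3, Itga5, Itga9, Itgax, Itgbl1, Zyx and Itgb5). Called lower were 3: Itgae, Itga8 and Itgb2l, the last at the floor on all day 5 arrays. These calls are 26.3% of 38, against 23.7% of all genes, 13.7% higher and 9.99% lower. The median member changed by -0.02 and the median gene by 0.12, which median centring moved to 0.34. Groups were apart for 13 of 38 members and 40.4% of all genes, and members that did not pass spanned -1.17 to 1.12. The count was 5 without array 3 and 6 without array 2, 10 or 11. All comparisons with day 0 of 1 fraction share its 3 arrays, and the day 5 groups also serve more than 1 comparison.

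**Figure D2:**
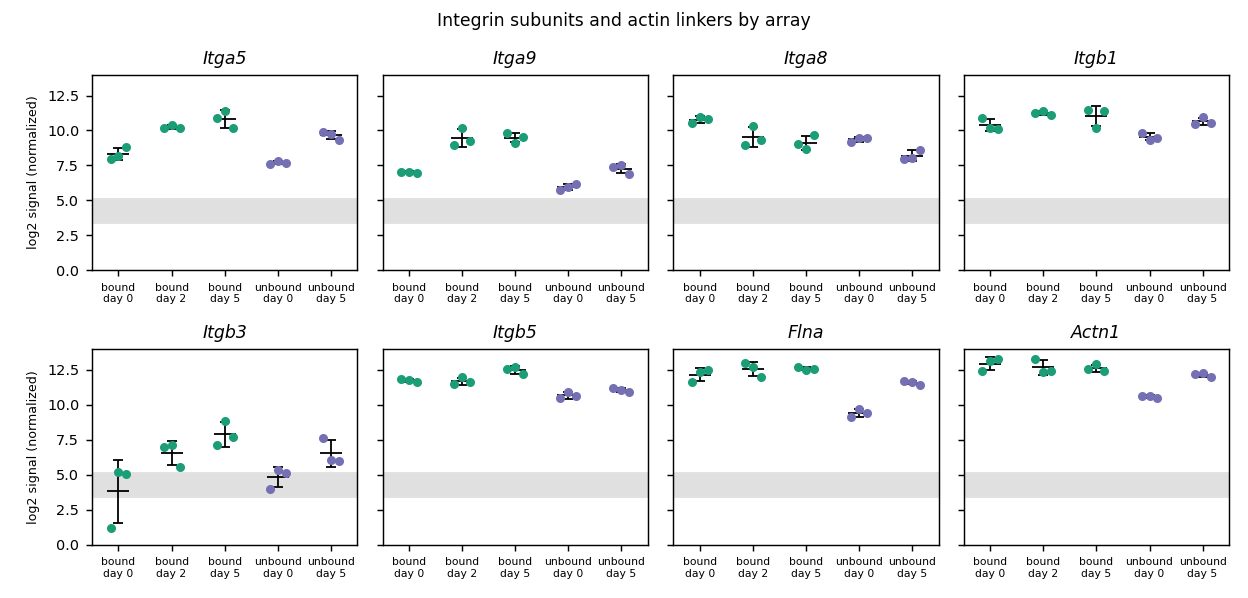
Log2 normalized signal of selected integrin and adaptor genes on each of the 15 arrays, by group. Points are arrays, bars the mean ± SD of 3 arrays, and the grey band the range of the highest negative control. Itga5 and Itga9 are lowest on day 0 in both fractions, and Itga8 is highest in bound RNA of day 0.

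Itga9 read 7.04, 7.06 and 6.93 in bound RNA on day 0, 8.95, 10.20 and 9.25 on day 2 and 9.80, 9.12 and 9.56 on day 5. All arrays after obstruction were above all sham arrays. The rise was 2.46 ± 0.31 by day 2 (5.49-fold, adjusted p = 0.000498) and 2.49 ± 0.31 by day 5 (5.6-fold, adjusted p = 0.000273). Neither call ended under any of the 15 alternatives tried for it. The other 2 Itga9 probe sets gave 0.71 and 2.05 on day 2 and 0.98 and 1.96 on day 5.

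Itga5 went from 7.99, 8.17 and 8.80 on day 0 to 10.15, 10.40 and 10.19 on day 2 and 10.89, 11.39 and 10.15 on day 5. These groups did not overlap with day 0 either, at 1.93 ± 0.31 on day 2 (3.8-fold, adjusted p = 0.00227) and 2.49 ± 0.31 on day 5 (5.62-fold, adjusted p = 0.000252). The mean of all 4 Itga5 probe sets, of which the other 3 have mean levels of 4.02, 3.22 and 2.01, gave 0.54 on day 2 (adjusted p = 0.463) and 0.68 on day 5 (adjusted p = 0.248). On day 2 the call also ended in a fit of only the groups compared (adjusted p = 0.0551).

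Itgb3, the β3 partner of αv and αIIb, read 1.21, 5.19 and 5.06 on day 0, with array 1 below the floor. It read 7.00, 7.09 and 5.52 on day 2 and 7.09, 8.85 and 7.69 on day 5. The day 5 difference was 4.06 ± 0.95 (adjusted p = 0.00992), and with array 1 set to its floor the 3 arrays give at least 8.89-fold. That floor value rests on array 1 alone: without it the difference was 2.75 (adjusted p = 0.0169). Without array 2 or 3 it was 4.74 or 4.67. Day 2 did not pass (2.72 ± 0.95, adjusted p = 0.0964), although its arrays were all above those of day 0. The day 5 call ended under a fit of only the groups compared and omission of the 4 bright arrays (adjusted p = 0.0589 to 0.0666).

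Itgb5 read 11.46, 11.96 and 11.61 in bound RNA on day 2, a difference of -0.09 ± 0.21 from day 0 (adjusted p = 0.845), with overlapping arrays. By day 5 it was above day 0 by 0.71 ± 0.21 or 1.64-fold (adjusted p = 0.0304), and its arrays were apart. The call ended without any 1 of arrays 2, 3, 10 and 11 (adjusted p = 0.0691 to 0.0943) and under the mean of all probe sets, a fit of only the groups compared and omission of the 4 bright arrays (adjusted p = 0.0659 to 0.138). Its other 3 probe sets gave 0.73, 0.41 and 0.22. Median centring gave 1.30.

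Zyx encodes zyxin, a LIM protein of focal adhesions and stress fibres under tension. It read 10.47, 10.62 and 9.78 on day 0, 10.27, 11.03 and 9.82 on day 2 and 11.34, 11.08 and 11.26 on day 5. Day 5 was above day 0 on every array, by 0.93 ± 0.30 or 1.91-fold (adjusted p = 0.0424). It failed the threshold without any 1 of arrays 1, 3, 10, 11 and 12 (adjusted p = 0.0572 to 0.164) and under a fit of only the groups compared and omission of the 4 bright arrays (adjusted p = 0.0862 to 0.112).

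Itga8 fell in bound RNA, from 10.52, 10.98 and 10.81 on day 0 through 8.94, 10.34 and 9.29 on day 2 to 9.00, 8.68 and 9.67 on day 5. No obstructed array reached the sham range. The day 5 difference was -1.65 ± 0.36 (3.15-fold lower, adjusted p = 0.00724), and that of day 2 did not pass (-1.25 ± 0.36, adjusted p = 0.0502). The day 5 call ended under the mean of all probe sets (adjusted p = 0.14). Podocyte markers in bound RNA moved the same way, 6 of 6 being lower on day 5 by a median of -1.94. Their mean level went from 11.25 to 12.50 down to 8.31 to 10.50. So did 7 of 14 endothelial, 9 of 10 proximal tubule, 9 of 10 collecting duct and 6 of 7 loop and distal markers. Itga8 was lower in unbound RNA too on every day 5 array, a difference of -1.16 ± 0.36 that did not pass (adjusted p = 0.062). There 1 of 6 podocyte markers was higher and 0 lower (median 0.30), while 6 of 10 collecting duct markers were lower. The part of these markers in the fall of Itga8 was not tested. Npnt, which encodes the α8β1 ligand nephronectin, was also lower in bound RNA on day 5 (-2.12 ± 0.49, adjusted p = 0.00992).

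Lims2 encodes PINCH2, which binds integrin-linked kinase. It read 10.75, 10.18 and 9.66 on day 0, 8.73, 9.00 and 7.74 on day 2 and 8.99, 9.18 and 9.66 on day 5. It passed on day 2, when all arrays were below day 0, at -1.71 ± 0.34 (3.27-fold lower, adjusted p = 0.00877). Day 5, at -0.92 ± 0.34, did not pass (adjusted p = 0.0697). In unbound RNA Lims2 was lower on every day 5 array than on day 0, a difference of -1.12 ± 0.34 that did not pass (adjusted p = 0.0566). The day 2 call ended under a fit of only the groups compared and omission of the 4 bright arrays (adjusted p = 0.0756 to 0.166). Lims1, the PINCH1 gene, differed by -0.21 ± 0.29 on day 2 (adjusted p = 0.721).

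Itgbl1, which encodes a secreted protein with repeats like those of integrin beta chains, was at or near the floor on all bound arrays. It read 3.54, 2.32 and 2.17 on day 0, 1.44, 4.77 and 2.82 on day 2 and 4.43, 4.83 and 4.69 on day 5. Day 5 was higher by 1.97 ± 0.64 (adjusted p = 0.0432), at least 1.52-fold, and the call ended without any 1 of arrays 2, 3, 10, 11 and 12 (adjusted p = 0.0817 to 0.137) and under median centring, brightness as a covariate and omission of the 4 bright arrays (adjusted p = 0.0638 to 0.17).

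Itgb2l stayed at or near the floor and has no fold. With its day 5 arrays set to their floor the difference from day 0 was 0.40, so its direction is not measured. Its values were 2.93, 4.57 and 4.73 on day 0 and 2.66, 0.63 and 1.42 on day 5, a difference of -2.50 ± 0.66 (adjusted p = 0.0173). The gene did not pass without any 1 of arrays 2, 3 and 11 (adjusted p = 0.0586 to 0.0691) and under the mean of all probe sets, a fit of only the groups compared and omission of the 4 bright arrays (adjusted p = 0.056 to 0.347). The mean of its probe sets gave -0.58.

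Marker lists moved with these bound members by day 5. Higher than on day 0 were 8 of 15 macrophage markers (median 1.71), 3 of 6 neutrophil (2.96), 2 of 5 platelet (1.18), 5 of 12 fibroblast (0.78) and 5 of 10 smooth muscle or pericyte markers (0.72), and none were lower. Of the 6 neutrophil markers, 4 were at the floor in bound RNA of day 0 and 2 in that of day 5, so their median is not a measured size. Array 1 was the lowest of the bound day 0 arrays and array 11 the highest of the bound day 5 arrays for Itgb3. The same holds for the mean macrophage level (6.97 and 10.14) and the mean platelet level (4.05 and 5.93), where the platelet markers Gp5 and Treml1 were at the floor in both groups. Their part in the rises of Itgb3, Itga5, Itga9, Itgb5 and Zyx was not tested.

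Between day 2 and day 5 of obstruction, limma called 0 of 38 members in bound RNA, against 0.588% of all genes in either direction, 0.511% higher and 0.0772% lower. Of the members 6 had an unadjusted p under 0.05. Those were Itgb5, Zyx, Itgbl1 and Lims2, with differences above 0, and Itga6 and Itgb8, with differences below 0. The largest of these by t statistic was Itgb5, at 0.80 ± 0.21 (adjusted p = 0.119). Without array 8 the count was 3. The members had a median of -0.07 and all genes of 0.09, which median centring moved to 0.30.

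In unbound RNA, both actin cross-linkers, α5, α9, α3 and the leukocyte chains αX and αL were higher on day 5 of obstruction than on day 0, and αE was lower. The 7 higher and 1 lower are 21.1% of 38, against 10.4% of all genes in either direction, 6.44% higher and 3.94% lower. The median member changed by 0.59 and the median gene by 0.01, which median centring moved to -0.22. Groups were apart for 25 of 38 members and 45.9% of all genes, and members that did not pass spanned -1.16 to 2.39. The count was 4 without array 4 or 13 and 5 without array 5 or 6.

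**Figure D3:**
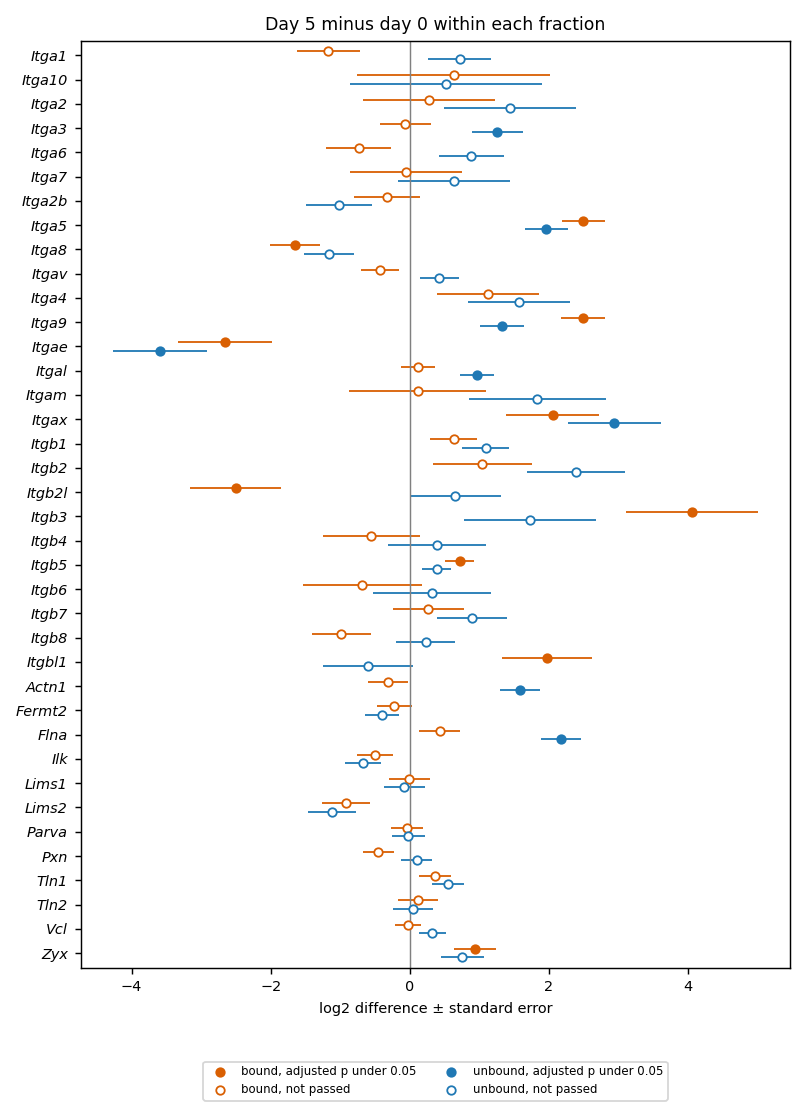
Log2 difference between day 5 and day 0 for each of the 38 genes in bound (orange) and unbound RNA (blue), as the limma estimate with its standard error. Filled points passed at an adjusted p under 0.05, 10 in bound and 8 in unbound RNA. Flna and Actn1 are filled in unbound RNA, at 2.17 and 1.58, and open in bound RNA, at 0.43 and -0.32.

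Flna rose from 9.10, 9.69 and 9.43 to 11.68, 11.61 and 11.44 in unbound RNA, 2.17 ± 0.29 or 4.51-fold (adjusted p = 0.000705), with arrays far apart. That call did not end under any of the 15 alternatives tried. Actn1 rose from 10.64, 10.63 and 10.48 to 12.20, 12.27 and 12.00, 1.58 ± 0.29 or 2.99-fold (adjusted p = 0.00495), also with no overlap. The Actn1 call ended under median centring, the mean of all probe sets and omission of the 4 bright arrays (adjusted p = 0.0654 to 0.285). In bound RNA neither gene passed, at 0.43 ± 0.29 (adjusted p = 0.313) for Flna and -0.32 ± 0.29 (adjusted p = 0.464) for Actn1. Both other Actn1 probe sets, above the floor on all 15 arrays, gave -1.09 and -2.67 in bound RNA and 1.32 and 0.53 in unbound RNA. The small bound difference of Actn1 thus holds for the chosen probe set only.

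Itga5 rose from 7.60, 7.80 and 7.68 to 9.89, 9.74 and 9.33 in unbound RNA, 1.96 ± 0.31 or 3.89-fold (adjusted p = 0.00202). The groups did not overlap, and the call ended under the mean of all probe sets (adjusted p = 0.36), at 0.67. Itga9 rose from 5.76, 5.94 and 6.14 to 7.39, 7.54 and 6.88, 1.32 ± 0.31 or 2.5-fold (adjusted p = 0.0189). Its call ended without any 1 of arrays 4, 5, 13 and 14 (adjusted p = 0.0611 to 0.0837) and under median centring, the mean of all probe sets and omission of the 4 bright arrays (adjusted p = 0.0836 to 0.158). The other 2 probe sets gave 0.69 and 0.52. Both genes were thus higher on day 5 in each fraction.

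Itga3 encodes α3, which with β1 binds laminin in epithelia and podocytes. It read 9.41, 9.56 and 9.48 on day 0 and 10.99, 10.96 and 10.26 on day 5, higher on every array by 1.26 ± 0.36 or 2.39-fold (adjusted p = 0.0465). The call ended without any 1 of arrays 4, 5, 6, 13 and 14 (adjusted p = 0.11 to 0.17) and under median centring, no filter, the mean of all probe sets and omission of the 4 bright arrays (adjusted p = 0.0521 to 0.243). Its other 2 probe sets gave 1.03 and 0.02. In bound RNA it read 10.10, 9.93 and 10.20 on day 0 and 10.32, 10.30 and 9.41 on day 5, a difference of -0.06 ± 0.36 (adjusted p = 0.919).

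Fibroblast markers rose in unbound RNA too: 7 of 12 were higher on day 5 and 0 lower, with a mean level of 7.53 to 8.26 on day 0 and 9.72 to 9.88 on day 5. Macrophage markers spanned 8.11 to 8.54 on day 0 and 10.84 to 11.14 on day 5, with 12 of 15 higher. Their part in the rises of Flna, Actn1, Itga5, Itga9 and Itga3 was not tested.

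Whether the difference between bound and unbound RNA changed from day 0 to day 5 was tested directly. Limma called 0 of 38 members, and 3 of 16839 genes (0.0178%). An unadjusted p under 0.05 was reached by 10 members. Of these Actn1 (-1.89 ± 0.41, adjusted p = 0.112) and Flna (-1.75 ± 0.41, adjusted p = 0.141) had values below 0, from smaller differences on day 5, and Itga9 a value above 0 (1.16 ± 0.44, adjusted p = 0.283). None of these passed after adjustment. The others were Itga1, Itga3, Itga6, Itgal, Itgav and Itgb2l with values below 0 and Itgbl1 above 0. The median was -0.48 for members and 0.09 for all genes, and under median centring 0.13 and 0.53.

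Leukocyte integrins are alpha chains that pair with β2 (αL, αM, αX) or β7 (αE) on blood and tissue immune cells. Itgax, the CD11c gene of dendritic cells and macrophages, read 3.85, 4.10 and 4.66 in bound RNA on day 0, 7.96, 5.53 and 5.71 on day 2 and 5.53, 7.83 and 5.41 on day 5. In unbound RNA it read 4.33, 4.60 and 4.36 on day 0 and 7.61, 7.27 and 7.23 on day 5. Array 7 of day 2 and array 11 of day 5 stood above the other bound arrays, and all obstructed arrays were above all sham arrays.

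The day 5 rise of Itgax was 2.05 ± 0.67 in bound RNA (adjusted p = 0.043). Arrays 1 and 2 of bound day 0 were at or below the floor, so the bound rise has no exact fold. In unbound RNA, where day 0 lay near the floor, the rise was 2.93 ± 0.67 (7.65-fold, adjusted p = 0.0153). Day 2 of bound RNA did not pass (2.19 ± 0.67, adjusted p = 0.0596). The bound call ended without any 1 of arrays 1, 2, 3 and 11 (adjusted p = 0.0681 to 0.147) and under a fit of only the groups compared, a pseudocount of 16 and omission of the 4 bright arrays (adjusted p = 0.0537 to 0.0998). Without array 11 the bound rise was 1.26. The unbound call ended without any 1 of arrays 4, 6 and 13 (adjusted p = 0.0508 to 0.0662) and under omission of the 4 bright arrays (adjusted p = 0.115).

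Itgb2 encodes the shared β2 chain. It read 4.64, 5.98 and 7.03 bound on day 0, 8.52, 6.34 and 6.73 on day 2, 6.36, 8.27 and 6.14 on day 5, and 6.40, 5.77 and 6.56 and 9.05, 8.47 and 8.36 unbound on day 0 and day 5. Arrays 7 and 11 were again the highest of their groups. The unbound arrays were apart, at 2.39 ± 0.71, which did not pass (adjusted p = 0.0516). The bound difference was 1.04 ± 0.71 (adjusted p = 0.311).

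Itgal rose in unbound RNA from 5.40, 5.59 and 5.32 to 6.89, 6.13 and 6.17, 0.97 ± 0.25 or 1.95-fold (adjusted p = 0.0272). The arrays were apart, and the call ended without any 1 of arrays 4, 5, 6 and 13 (adjusted p = 0.0574 to 0.13) and under the mean of all probe sets and omission of the 4 bright arrays (adjusted p = 0.158 to 0.221). In bound RNA Itgal read 5.53, 4.87 and 5.09 on day 0 and 5.18, 5.38 and 5.29 on day 5, with 0.12 ± 0.25 (adjusted p = 0.765). Itgam, the CD11b gene, gave values of 0.61 to 5.10 and was at or below the floor on 9 arrays, so no level of it is read here. The mean level of the macrophage markers was also highest on array 7 among day 2 arrays (9.93, against 8.24 and 8.65) and on array 11 among bound day 5 arrays (10.14, against 9.50 and 8.73). None of the 15 markers was at the floor. Their part in the Itgax, Itgb2 and Itgal values was not tested.

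Itgae, the αE chain that pairs with β7 and binds E-cadherin, fell after obstruction. It read 7.52, 8.58 and 9.02 in bound RNA on day 0, 4.94, 5.20 and 7.85 on day 2 and 5.44, 6.71 and 4.98 on day 5. Unbound RNA gave 9.76, 9.89 and 10.06 on day 0 and 6.14, 6.47 and 6.31 on day 5. The day 0 arrays were above the day 5 arrays of their fraction, while array 9 of day 2 lay within the sham range.

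The fall of Itgae in unbound RNA was -3.59 ± 0.68 (12.1-fold, adjusted p = 0.00575) and did not lose its call under any of the 15 alternatives tried. In bound RNA it was -2.37 ± 0.68 by day 2 (adjusted p = 0.0468) and -2.66 ± 0.68 by day 5 (6.31-fold, adjusted p = 0.0151). The day 2 call ended without any 1 of arrays 2, 3, 7 and 8 (adjusted p = 0.101 to 0.153) and under median centring, no filter and a fit of only the groups compared (adjusted p = 0.0515 to 0.274). Without array 9 the day 2 difference was -3.30 (adjusted p = 0.00282). The day 5 call ended without any 1 of arrays 3, 10 and 12 (adjusted p = 0.0509 to 0.0611). Its partner Itgb7 ranged from 4.84 to 6.99 over all arrays and passed in no comparison. Of 10 lymphocyte markers, between day 0 and day 5, 1 passed in unbound RNA, where it was higher, and none in bound RNA. By group mean, 5 of the 10 were at the floor in bound RNA of day 0 and 3 in unbound RNA of day 0. A fall of those markers could not be read. Tubule markers fell with Itgae: in bound RNA 9 of 10 for the proximal tubule, 9 of 10 for the collecting duct and 6 of 7 for the loop and distal tubule were lower on day 5. In unbound RNA 6 of 10 for the collecting duct (median -1.46), 1 of 10 for the proximal tubule and 1 of 7 for the loop and distal tubule were lower. Their part in the fall of Itgae was not tested.

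**Figure D4:**
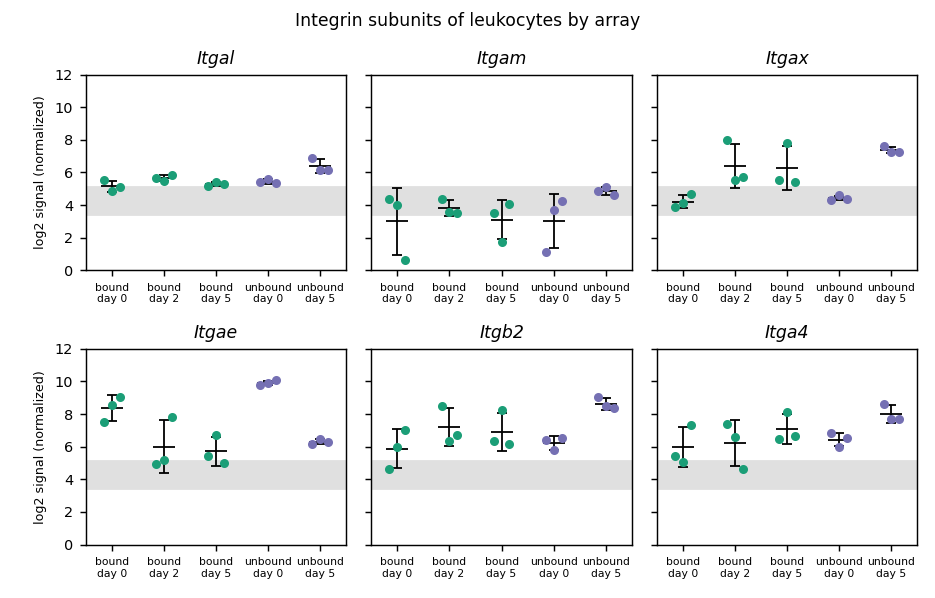
Log2 normalized signal of leukocyte and other integrin genes on each of the 15 arrays, by group, with points for arrays, bars for the mean ± SD of 3 arrays and a grey band for the range of the highest negative control. Itgax rises after obstruction in both fractions, with arrays 7 and 11 at 7.96 and 7.83, while Itgae falls.

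Members that passed in no comparison numbered 20, and they include the common partners of the receptors above. Itgav, the αv chain, read on its chosen probe set between 11.77 and 12.88 on all arrays, with overlapping groups. Its differences lay between -0.43 and 0.44 in the 6 comparisons of groups, each with an adjusted p of 0.283 or more. Another Itgav probe set, dimmer but above the floor on all arrays, gave 1.55 on day 2 and 1.70 on day 5 in bound RNA and 0.81 in unbound RNA. Itgb1, the β1 chain shared by most matrix receptors, read 10.87, 10.17 and 10.13 bound and 9.84, 9.35 and 9.49 unbound on day 0, and 11.46, 10.19 and 11.41 and 10.48, 10.94 and 10.52 on day 5. It was higher on every unbound array of day 5 than on day 0, by 1.09 ± 0.34, without passing (adjusted p = 0.0589). On day 2 Itgb1 read 11.23, 11.37 and 11.09 bound, above all bound arrays of day 0, at 0.84 ± 0.34 (adjusted p = 0.145). An Itgb1 probe set of almost the same brightness gave 1.38 between the fractions on day 0 and 0.97 on day 5. The chosen one gave 0.83 and 0.37.

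Itga1, a collagen receptor chain of mesenchymal and endothelial cells, read 11.64, 11.83 and 12.43 bound on day 0 and 11.40, 10.18 and 10.81 on day 5, a difference of -1.17 ± 0.45 that did not pass (adjusted p = 0.0779). Its unbound values were 11.19, 10.72 and 11.36 and 11.62, 11.90 and 11.89. On this probe set bound arrays were above unbound ones on day 0 and below them on day 5, at 0.88 ± 0.45 (adjusted p = 0.248) and -1.01 ± 0.45 (adjusted p = 0.152). The other Itga1 probe set, also above the floor on all arrays, gave 0.55 on day 0, 0.24 on day 5 and 0.72 for day 5 against day 0 of bound RNA, so the day 5 directions differ between probe sets. Itgb6, the epithelial partner of αv, ranged from 6.00 to 10.50, with array 7 highest. Its largest group difference was -1.43 ± 0.85 between day 5 and day 2 of bound RNA (adjusted p = 0.429). Itgb4, the α6 partner in hemidesmosomes, Itga4, the VCAM-1 receptor chain, Itga7, a laminin receptor chain of muscle, and Itga2b, the platelet αIIb chain, did not pass either.

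The core adaptors Tln1, Tln2, Vcl, Pxn, Parva, Fermt2 and Lims1 passed in no comparison either. Tln1, which encodes talin 1, read 11.22, 11.89 and 11.73 bound and 10.70, 10.98 and 10.88 unbound on day 0. The bound arrays were all higher, by 0.76 ± 0.23, which did not pass (adjusted p = 0.058). A dimmer Tln1 probe set gave -0.40. Vcl, the vinculin gene, read 12.64, 12.64 and 12.78 and 12.12, 12.17 and 12.45, with 0.44 ± 0.19 (adjusted p = 0.167), and its arrays were also apart. A dimmer Vcl probe set gave 0.02 on day 0 but 1.51 for day 5 against day 0 of bound RNA, against -0.03 on the chosen one.

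Ilk on day 0 read 12.03, 12.23 and 11.78 bound and 11.25, 11.61 and 11.10 unbound, 0.70 ± 0.26 (adjusted p = 0.115), with no overlap. Parva, its α-parvin partner, differed by 0.62 ± 0.23 on day 0 (adjusted p = 0.122) and 0.60 ± 0.23 on day 5 (adjusted p = 0.106). Pxn, the paxillin scaffold, was lower in bound RNA on day 5 by a difference of -0.63 ± 0.22 that did not pass (adjusted p = 0.0743). Fermt2 (kindlin-2), Lims1 and Tln2 (talin 2) had differences of -0.40 to 0.29 in the 6 comparisons of groups on their chosen probe sets. Other probe sets of these genes above the floor on all arrays went beyond that range. For Lims1, a set of almost the same brightness gave 1.39 between the fractions on day 0 and 1.16 on day 5. For Fermt2, 1 gave 1.20 on day 2 and 1.05 on day 5 in bound RNA, and for Tln2, 1 gave -1.20 on day 2, -1.70 on day 5 and -1.24 in unbound RNA.

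Where a called member had another probe set above the floor on all 15 arrays, that probe set gave a difference of the same sign in 24 of 24 cases. Those cases are of 5 genes (Actn1, Itga3, Itga6, Itga9 and Itgb5). Sizes differed, in part widely, such as 0.02 against 1.26 for Itga3 and 0.53 against 1.58 for Actn1 in unbound RNA. Over all members, called or not, 23 such probe sets had the sign of the chosen one in 95 of 138 differences, so values of members that did not pass hold for the chosen probe set only.

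Other components of the pathway were counted in 2 further lists. The share of all genes that passed is repeated here for comparison: 8.93% between fractions on day 0, 14.1% on day 5, 9.26% for bound day 2, 23.7% for bound day 5 and 10.4% for unbound day 5. Of 50 measured further adhesion components, 13 were higher and 1 lower in bound RNA on day 0, and 9 higher and 2 lower on day 5. In bound RNA 3 were higher and 1 lower on day 2 than on day 0, and 12 higher and 5 lower on day 5. Unbound RNA had 11 higher and 0 lower. The shares are 28% and 22% between fractions, 8% and 34% in bound RNA and 22% in unbound RNA. Their median difference was 0.27 on day 0 and 0.03 on day 5 between the fractions, 0.21 for day 5 against day 0 in bound RNA and 0.38 in unbound RNA. Flnc, the muscle-type filamin, rose by 3.35 ± 0.29 in bound RNA by day 5 (adjusted p = 2.23e-05). Tgfb1i1, the paxillin relative Hic-5, was higher in bound RNA by 2.02 ± 0.32 on day 0 (adjusted p = 0.00311) and 1.95 ± 0.32 on day 5 (adjusted p = 0.00424). Actn4, the podocyte-rich α-actinin-4, was higher in bound RNA on day 0 (3.01 ± 0.55, adjusted p = 0.00689) and changed by -2.34 ± 0.55 by day 5 (adjusted p = 0.0102).

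Of 35 integrin ligands, 18 were higher and 0 lower in bound RNA on day 0, and 8 higher and 5 lower on day 5. In bound RNA 8 were higher on day 2 than on day 0, and 10 higher and 2 lower on day 5. Unbound RNA had 17 higher and 0 lower. The shares are 51.4% and 37.1% between fractions, 22.9% and 34.3% in bound RNA and 48.6% in unbound RNA. The median ligand differed by 1.16 on day 0 and 0.53 on day 5 between fractions, and from day 0 to day 5 by 0.55 in bound and 1.08 in unbound RNA. Tnc, the tenascin-C ligand of α9β1, was higher in bound RNA on day 0 by 2.35 ± 0.27 (adjusted p = 0.000548). Fn1, the fibronectin ligand of α5β1, was higher in bound RNA on day 0 by 2.08 ± 0.40 (adjusted p = 0.00828), and rose in unbound RNA by 2.11 ± 0.40 (adjusted p = 0.00546). Postn, the periostin ligand of αv integrins, rose in bound RNA by 4.06 ± 0.58 by day 5 (adjusted p = 0.000623). Tgfb1, which is activated by αv integrins, rose by 2.42 ± 0.54 (adjusted p = 0.00781).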

How the data were processed

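Polysomal RNA was isolated by a modified TRAP procedure, amplified in 1 round with a NuGEN kit and biotin-labelled, per the labels. The values are linear probe set intensities as the authors deposited them, 1 column per array. The method of probe summary, any background correction and any scaling were not given in the sources used here. Array medians of 16.4 to 198.7 differed, so log2(value + 1) was quantile normalized between all 15 arrays. Of 45037 probe sets besides 64 controls, 34945 named 1 gene, 932 several and 9160 none, and 34741 matches used the Entrez identifier. The probe set of highest mean stood for its gene, and 16839 genes were tested, those that exceeded an array's 25th percentile 3 times or more.

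Limma 3.58.1 in R 4.3.3 fitted 5 groups and 7 contrasts (10 residual and 2.33 prior degrees of freedom), with Benjamini-Hochberg adjustment over all genes and a threshold of 0.05. Only the limma fit was tried on simulated data, drawn around the normalized gene means. Normalization, choice of probe set, filter and floor were not simulated. A group mean at or below the floor, the highest of 27 negative controls, gives a fold of at least the value against the floor. Per-array values are printed for up to 12 members per comparison that passed with groups apart, and for landmark members, and from the other lists come examples among the 4 largest calls per comparison and known ligands of members. Members and lists were chosen with earlier results of these data known, and the alternatives tried are given in the closing section. Figures used matplotlib 3.10.9 with Python 3.11.15. The number of arrays limits the precision. A further gene list is not reported here.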

Additional observations from a re-analysis of the deposited data

How the results depend on the processing

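The 35 calls were recomputed 522 times under other settings: 376 kept their call, 146 lost it and 0 reversed. The settings were median centring, a filter at the 50th percentile or none, the mean over a gene's probe sets, only the groups compared, array weights, a pseudocount of 16, brightness as a covariate, omission of the 4 bright arrays, and omission of each array. For bound against unbound RNA on day 0, 4 members became 2 under median centring, 2 without the 4 bright arrays and 12 with array weights, and on day 5, 9 became 0 without the bright arrays and 20 with array weights. In bound RNA the 4 of day 2 became 1 with only the groups compared, and the 10 of day 5 became 5 with only the groups compared and 4 without the bright arrays. In unbound RNA 8 became 3 with the mean of probe sets, 18 with only the groups compared, 3 without the bright arrays and 18 with array weights. For the change in the difference, 0 became 3 with only the groups compared and 7 with array weights. Leaving out 1 array gave 2 to 4 members for day 0, 2 to 6 for day 5, 3 to 5 for bound day 2, 5 to 8 for bound day 5, 0 to 3 between day 2 and day 5, 4 to 8 for unbound RNA and 0 to 0 for the change. The cause was not tested. Signal near background limits Itga2, Itga10, Itgam, Itgb2l and Itgbl1, and Itgax on day 0. No paired analysis was possible because each array carries its own number in the labels and the groups share none.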
